A study of Mus musculus with 20 samples.

Results

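The genes described here are those whose symbols begin with Nduf, which name the nuclear-encoded subunits of respiratory complex I (NADH:ubiquinone oxidoreductase) and its dedicated assembly factors. They were found as all probe sets annotated with exactly 1 gene symbol, where that symbol begins with Nduf, and where a gene had several, the brightest by its mean across the 20 arrays stood for it. This gave 44 genes of 18193 named genes on the array, from 88 probe sets. Of these, 36 were taken as subunits and 8, named Ndufaf, as assembly factors. By symbol the 36 include Ndufa4, later assigned to cytochrome c oxidase, and its paralogue Ndufa4l2, and all totals count both. Liver was taken from male mice of the inbred C57BL/6J strain, which the labels give as eight-week-old. High-fat mice (10 animals) received a diet with 45% of its energy from fat for 4 weeks, and low-fat mice (10 animals) a diet with 10%. All animals arrived at an age of 3 weeks, were acclimated for 1 week on the low-fat diet and were killed after a 16 h fast. Every mouse had its own array. The maple syrup extract groups of the same study were not analysed here.

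Complex I is the largest enzyme of the mitochondrial respiratory chain. Its matrix arm takes electrons from NADH over a flavin and a chain of iron-sulfur clusters to ubiquinone, and its membrane arm pumps protons into the space between the mitochondrial membranes. A core of subunits carries the catalysis, accessory subunits surround and stabilise it, and assembly factors help to build the enzyme without remaining in it. In hepatocytes, which are rich in mitochondria, the enzyme reoxidises the NADH made by fatty acid oxidation and the citric acid cycle.

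The deposited probe set scores run like log2 intensities, from 5.18 upward, but differ far less between mice than log2 intensities of single animals do. Across the 20 arrays the SD of a probe set had a median of 1.17e-05. The SD within diets ran from 6.21e-07 to 0.000166 among the 44 complex I genes, a 267-fold range. A score difference is therefore not read as a log2 fold change, and score differences of separate genes are not set against each other. Sizes are given as standardised differences, the high-fat mean minus the low-fat mean divided by the SD within diets, with a 95% interval. The intervals are not adjusted for the number of genes. Diets were compared by limma over all 18193 genes, with Benjamini-Hochberg adjustment over all of them and a threshold of 0.05. The medians of the arrays lay between 6.56836 and 6.56856, and their mean was higher on the high-fat diet by 7.21e-05, a shift larger than the difference of 43 of the 44 complex I genes, while the median difference over all probe sets was 2.63e-07. Hepatocyte markers scored between 11.49 and 14.82 and skeletal muscle markers between 5.89 and 6.94. Of the hepatocyte markers 0 of 7 passed the test. In bulk liver, a change in the share of a cell type and a change in RNA per cell cannot be told apart.

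On the high-fat diet, Ndufb3, an accessory subunit of the membrane arm, rose, and Ndufa6 and Ndufa5, accessory subunits of the matrix arm, fell, with the scores as deposited (after quantile normalisation Ndufb3 turned lower). The standardised differences were 2.19 for Ndufb3, -2.18 for Ndufa6 and -1.64 for Ndufa5. No core subunit and no assembly factor passed the test. These 3 genes are 6.82% of the 44, and over all genes 3.49% passed in either direction, with 1.71% that rose and 1.78% that fell. The remaining 41 genes did not pass. By an unadjusted p under 0.05, 10 of the 44 differed, against 17.0% of all genes. In 0 of the 44 were the scores of both diets fully apart, against 0.275% of all genes. The 3 called genes are given with their RefSeq promoters (assembly GRCm38.p6, 250 bases before to 50 after the annotated start, on the gene's own strand), so that the regulatory sequence next to each gene that passed can be read beside its direction. Capitals mark matches to the NRF1 core motif.

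The promoter of Ndufa6 lies on the minus strand at chr15:82354242-82354541, and that of Ndufa5 on the minus strand at chr6:24527641-24527940. RefSeq gives Ndufa5 another start, with the window chr6:24527477-24527776, which overlaps the printed one and holds the same NRF1 match. The promoter of Ndufb3 lies on the plus strand at chr1:58586147-58586446.
Ndufa6: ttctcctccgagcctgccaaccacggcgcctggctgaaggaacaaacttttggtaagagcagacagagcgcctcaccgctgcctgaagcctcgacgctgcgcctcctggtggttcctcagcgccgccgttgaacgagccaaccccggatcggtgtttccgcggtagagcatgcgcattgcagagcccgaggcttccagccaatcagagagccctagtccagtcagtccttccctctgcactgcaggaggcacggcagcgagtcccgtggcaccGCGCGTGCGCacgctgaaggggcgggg
Ndufa5: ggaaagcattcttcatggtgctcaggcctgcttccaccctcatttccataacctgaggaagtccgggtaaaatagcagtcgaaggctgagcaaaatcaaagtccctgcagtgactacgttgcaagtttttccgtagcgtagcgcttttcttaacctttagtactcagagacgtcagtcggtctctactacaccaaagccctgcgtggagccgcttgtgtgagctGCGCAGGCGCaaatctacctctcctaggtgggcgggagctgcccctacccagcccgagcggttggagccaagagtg
Ndufb3: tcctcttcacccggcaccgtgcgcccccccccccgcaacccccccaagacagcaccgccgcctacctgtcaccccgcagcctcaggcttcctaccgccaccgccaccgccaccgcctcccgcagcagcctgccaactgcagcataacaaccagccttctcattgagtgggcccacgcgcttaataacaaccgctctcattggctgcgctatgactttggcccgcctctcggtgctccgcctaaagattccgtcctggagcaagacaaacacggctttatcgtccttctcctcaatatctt
Motifs were searched as exact letters on both strands. NRF1, a transcription factor known for its sites at genes of the respiratory chain, was searched as GCGCA, any base, then GCGC. The core of ETS factors such as GABP was searched as CCGGAAG, and that of YY1 as AAGATGGC. Ndufa6 and Ndufa5, which fell, each had 1 NRF1 match, and Ndufb3, which rose, had no match to any of the 3 motifs in this window. Members with an NRF1 match that did not pass stood on both sides of 0. Ndufb4 stood at 0.41 and Ndufaf4 at 0.30, and Ndufa8 at -0.36, Ndufs5 at -0.36 and Ndufaf5 at -0.49. Mean scores of Ndufb4 (6.11) and Ndufaf5 (6.77) were low, within the 5.89 to 6.94 of the skeletal muscle markers. A relation of motif to direction was not tested. Of the 39 complex I genes with a promoter in the table, 7 (17.9%) held the NRF1 letters, against 5.19% of all 27025 genes with a promoter. The YY1 letters stood in 7 (17.9%), against 3.19% of all genes, and the ETS letters in 6 (15.4%), against 9.93%. A match describes the sequence and is no evidence of binding.

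In the membrane arm, Ndufb3 scored 10.481712 ± 7.43e-05 in high-fat mice and 10.481555 ± 6.9e-05 in low-fat mice (mean ± SD, n = 10 each). Measured from the low-fat mean in units of the SD within diets, high-fat mice ran from 0.47 over a median of 2.05 to 4.01, and low-fat mice from -1.43 over -0.05 to 1.73. Each of the 10 high-fat scores exceeded the low-fat median and 6 exceeded every low-fat score, so the diets overlapped in part. When each high-fat mouse was set against each low-fat mouse, the high-fat mouse scored higher in 95 of 100 pairs. The standardised difference was 2.19 (95% interval 1.04 to 3.29, limma adjusted p = 0.00828). Ndufb3 was measured by 1 probe set. Its direction depended on scaling: it stood at -1.34 (limma adjusted p = 0.0601) after quantile normalisation, and at 0.90 (limma adjusted p = 0.0615) after arrays were centred on their medians.

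Ndufa6, a matrix arm subunit of the LYR protein family that binds the acyl carrier protein Ndufab1, scored 11.515046 ± 5.02e-06 in high-fat mice and 11.515055 ± 3.99e-06 in low-fat mice. In standardised units high-fat mice ran from -3.99 over a median of -2.39 to -0.35, and low-fat mice from -1.40 over 0.05 to 1.23. All 10 high-fat mice lay below the low-fat median and 8 lay below every low-fat mouse. The standardised difference was -2.18 (95% interval -3.28 to -1.03, limma adjusted p = 0.0115). Ndufa6 was also measured by 1 probe set. It was lower on the high-fat diet under every scaling tried, but the call was lost after quantile normalisation (-0.45, limma adjusted p = 0.54).

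Ndufa5, an accessory subunit at the ubiquinone-binding part of the matrix arm, scored 10.523197 ± 3.53e-05 in high-fat mice and 10.523249 ± 2.7e-05 in low-fat mice. High-fat mice ran from -3.30 over a median of -1.74 to 0.29, and low-fat mice from -1.19 over -0.09 to 1.73. Of the high-fat mice 9 lay below the low-fat median and 6 below every low-fat mouse, and 1 lay above that median. The standardised difference was -1.64 (95% interval -2.65 to -0.60, limma adjusted p = 0.0443). The other probe set of Ndufa5 stood at -1.17. In the fit over all probe sets neither passed (limma adjusted p = 0.0554 for the probe set used here and 0.189 for the other). The call of Ndufa5 was narrow: leaving out arrays 1 at a time ended it in 16 of 20 fits, with adjusted p-values of up to 0.0759 (limma, without low-fat replicate 8). After quantile normalisation Ndufa5 stood at -0.52 (limma adjusted p = 0.47).

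**Figure D1:**
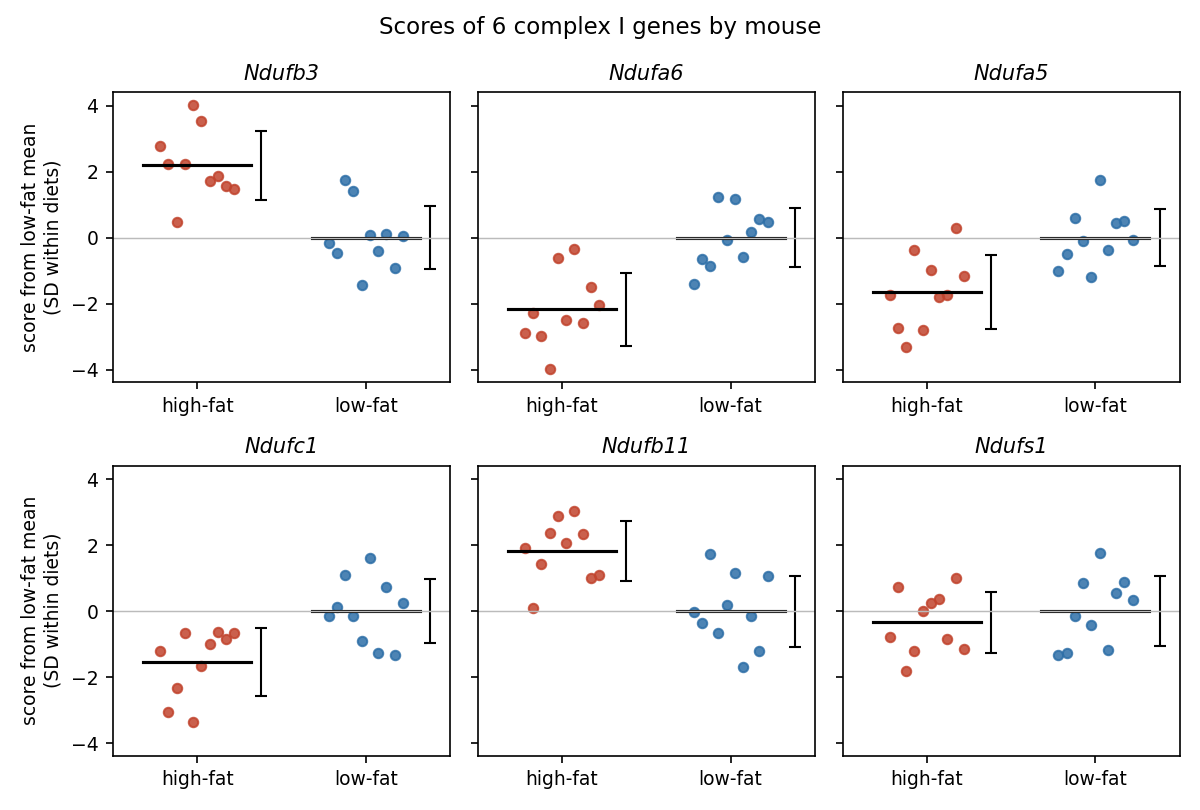
Scores of 6 complex I genes in every mouse, as the distance from the gene's low-fat mean in units of its SD within diets, with high-fat mice (red, n = 10) left of low-fat mice (blue, n = 10). Horizontal bars are means and error bars are SDs. For Ndufb3 and Ndufb11 the 10 high-fat points exceed the low-fat median, and for Ndufa6 and Ndufc1 they lie below it, while the diets lie on top of each other for Ndufs1.

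The core subunits of the matrix arm carry the flavin and the iron-sulfur clusters. Of the 6 measured, 3 were above and 3 below the low-fat mean, 0 passed, and the median standardised difference was 0.17, against 0.04 over all genes. Ndufs1, the largest subunit, which holds iron-sulfur clusters next to the flavin site, stood at -0.35 (95% interval -1.23 to 0.54, limma adjusted p = 0.758). High-fat mice ran from -1.81 over -0.39 to 0.99 and low-fat mice from -1.35 over 0.09 to 1.77, so the diets overlapped almost fully. Ndufs3 was the highest of this group (1.19, 0.22 to 2.13, limma adjusted p = 0.17). Ndufs8, which carries iron-sulfur clusters on the electron path to ubiquinone, stood beside it at 1.17 (0.20 to 2.11, limma adjusted p = 0.166). All 6 probe sets of Ndufs8 were above the low-fat mean, from 0.01 to 1.21, and 0 of them passed. Ndufv1, which binds the flavin and NADH, stood at 0.45, with all 3 probe sets between 0.42 and 0.53. Ndufv2 was the lowest of the group at -0.45 (-1.33 to 0.45).

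Of the 9 accessory subunits of the matrix arm 2 fell, Ndufa6 and, by a narrow call, Ndufa5, and 0 rose. Over all genes 1.78% fell and 1.71% rose. The other members of the group ran from -0.95 to 0.95. Ndufa12, which sits on the matrix arm, stood at -0.95 (-1.87 to -0.01, limma adjusted p = 0.279). Of its 4 probe sets 3 were lower, from -1.47 to -0.95, and the lowest scoring, with a mean of 6.37, stood at 0.33. Ndufs4, whose loss in mice gives a model of mitochondrial encephalopathy, stood at 0.57 (-0.33 to 1.46). Ndufa7 was the highest of the group at 0.95 (0.01 to 1.87, limma adjusted p = 0.559), but its 5 probe sets ran from -0.53 to 0.95.

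The proximal membrane arm had 8 measured accessory subunits, of which 7 were below the low-fat mean and 0 passed. Over all genes 47.5% were lower. Ndufc1 was the lowest, at -1.54 (-2.54 to -0.52, limma adjusted p = 0.0598). Its high-fat mice ran from -3.35 over -1.10 to -0.64 and its low-fat mice from -1.32 over -0.01 to 1.60, and all 10 high-fat mice lay below the low-fat median. The other probe set of Ndufc1 stood at -1.23. Ndufc1 missed the threshold narrowly and passed it in some other settings (limma adjusted p = 0.0406 among genes in the upper part by mean, and 0.0382 with the mean of both probe sets). In others it lay further off, at 0.156 without suffixed probe sets and 0.152 with a spike-in covariate (limma adjusted p). By the exact rank sum test its adjusted p was 0.128. Ndufa3 stood at -0.58 (-1.47 to 0.33), with all 3 probe sets below 0. Ndufc2, the only member above the low-fat mean, stood at 0.12 (-0.76 to 1.00), and its 4 probe sets lay between -0.32 and 0.18.

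In the distal membrane arm, Ndufb3 was 1 of 3 members above the low-fat mean among 11, and the other 8 were below it. Ndufb11, a small membrane subunit, had the second highest standardised difference of the arm, at 1.82 (0.75 to 2.86). It did not pass by limma (adjusted p = 0.431). Its high-fat mice ran from 0.09 over 1.98 to 3.04 and its low-fat mice from -1.70 over -0.10 to 1.73, so each high-fat score exceeded the low-fat median, and the high-fat mouse was higher in 90 of 100 pairs. Limma shares variances between genes with a prior SD of 7.09e-06, which is larger than the SD of 6.21e-07 of Ndufb11 and lowers its statistic. Without that sharing Ndufb11 passed (linear model adjusted p = 0.0314), as it did by an exact rank sum test over all genes (adjusted p = 0.048). Each of these tests called 3 of the 44 genes, Ndufb3, Ndufa6 and Ndufb11, against 3.28% of all genes without that sharing and 3.13% by rank sums. Its 3 probe sets stood at 1.82, 1.48 and 0.61. After arrays were centred on their medians its sign turned (-1.27). Ndufb8 was the lowest of the arm at -1.20 (-2.15 to -0.23, limma adjusted p = 0.187), followed by Ndufb5 at -1.15 (-2.08 to -0.18).

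Ndufa4 was named as a complex I subunit and was later assigned to cytochrome c oxidase, and Ndufa4l2 is its paralogue, known as a target of hypoxia signalling. Ndufa4 stood at -0.76 (-1.66 to 0.16, limma adjusted p = 0.544) and Ndufa4l2 at 0.13 (-0.75 to 1.00). Neither passed.

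**Figure D2:**
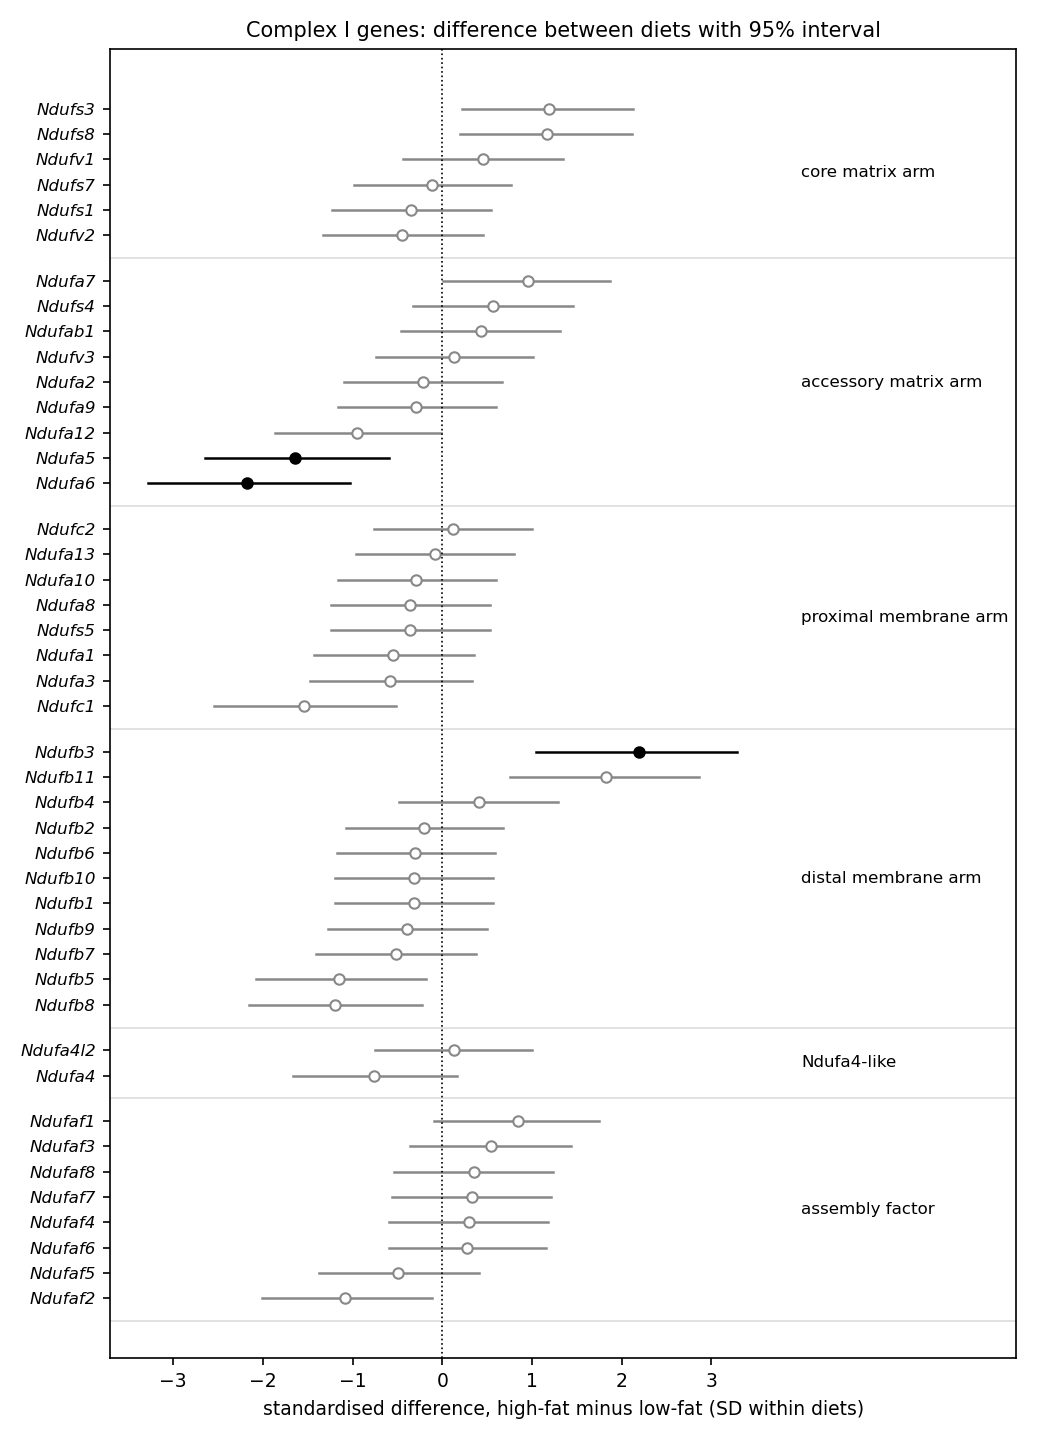
Standardised difference (high-fat minus low-fat, in SD within diets) of the 44 complex I genes, grouped by their place in the enzyme, with points for estimates and lines for 95% intervals (n = 10 mice per diet). Filled black points are the 3 genes with an adjusted p under 0.05, Ndufb3 above 0 and Ndufa6 and Ndufa5 below it, and open grey points are the other 41.

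With the scores as deposited, the assembly factors stood mostly above the low-fat mean, which turned after quantile normalisation and after arrays were centred on their medians. Of the 8 Ndufaf genes 6 were higher and 2 lower, 0 passed (smallest limma adjusted p = 0.203), and 1 had an unadjusted p under 0.05. Their median standardised difference was 0.32, against -0.29 for the 36 subunits, of which 24 were lower, and 0.04 for all genes. The difference between both sets was not tested. Ndufaf1, which acts on the membrane arm intermediate, was the highest at 0.84 (-0.09 to 1.75, limma adjusted p = 0.353). Its high-fat mice ran from -1.07 over 0.86 to 2.03 and its low-fat mice from -1.52 over 0.02 to 2.31. Ndufaf2, which acts late in assembly, was the lowest at -1.08 (-2.01 to -0.12, limma adjusted p = 0.203). Its high-fat mice ran from -2.16 over -0.95 to -0.24 and its low-fat mice from -1.30 over -0.27 to 2.86. Ndufaf4 stood at 0.30 and its other probe set at 0.94. After quantile normalisation 3 of the 8 were higher and 5 lower, with a median of -0.27, against -0.19 for the 23 subunits that could be fitted and -0.40 for all genes. After arrays were centred on their medians, all 8 assembly factors and 35 of the 36 subunits were lower, and the median of all genes moved to -1.24.

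Taking the mean over genes for each mouse, the 36 subunits ran from -0.99 over a median of -0.14 to 0.37 in high-fat mice and from -0.79 over -0.28 to 0.87 in low-fat mice. The SD between mice was 0.39 on the high-fat diet and 0.67 on the low-fat diet. Low-fat replicates 3, 4 and 6 stood highest, at 0.875, 0.866 and 0.804, and high-fat replicate 3 lowest, at -0.988. The assembly factors ran from -0.45 over 0.21 to 0.64 in high-fat mice and from -1.15 over -0.12 to 1.43 in low-fat mice. In both sets the range of the low-fat mice took in most or all of the high-fat mice.

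**Figure D3:**
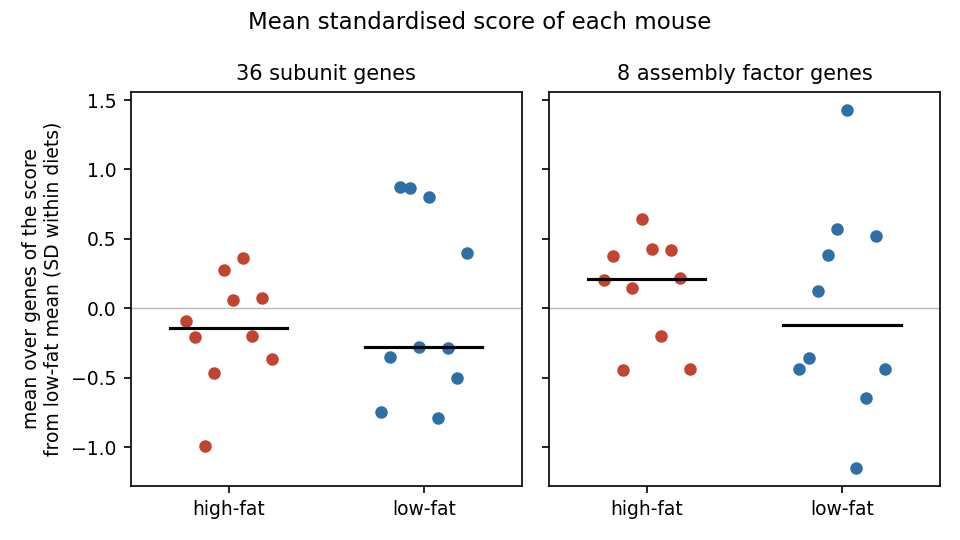
Mean over the 36 subunit genes (left) and the 8 assembly factor genes (right) of each mouse's score, measured from the gene's low-fat mean in units of its SD within diets. Points are mice, high-fat (red) left of low-fat (blue), and bars are medians. For subunits the low-fat mice reach from -0.79 to 0.87 and the high-fat mice from -0.99 to 0.37.

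Of the 44 genes 22 had several probe sets. In 15 of these all probe sets stood on the same side of 0, 10 of them lower and 5 higher on the high-fat diet. In the limma fit over all probe sets, 2 of the 88 had an adjusted p under 0.05, those of Ndufb3 and Ndufa6, against 2.32% of all probe sets. Of the genes with several probe sets that stood 1 SD or more from 0, Ndufa5, Ndufc1, Ndufb8 and Ndufb5 had all probe sets lower, and Ndufs8 and Ndufb11 had all probe sets higher.

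**Figure D4:**
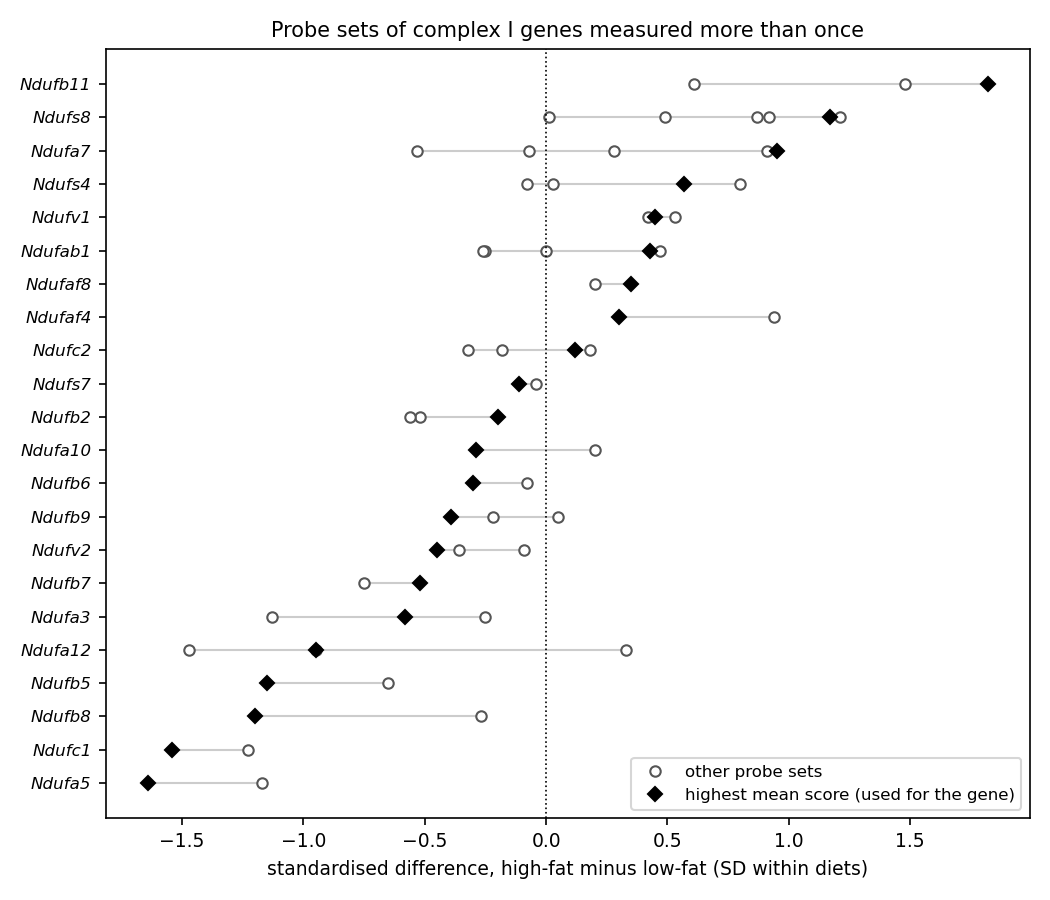
Standardised difference (high-fat minus low-fat, in SD within diets) of each probe set of the 22 complex I genes with several probe sets. Diamonds are the probe set that represents the gene and open circles its other probe sets. The probe sets of Ndufs8 run from 0.01 to 1.21, and those of Ndufa7 lie on both sides of 0.

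Other genes tied to complex I were read from lists. Of 11 measured further assembly factors, 0 passed and 7 were above the low-fat mean. Over all genes 3.49% passed in either direction, and 9547 of 18193 were above it. Nubpl, which delivers iron-sulfur clusters to complex I, was the highest at 1.40 (0.40 to 2.37, limma adjusted p = 0.085), and Dmac2 the lowest at -1.09 (-2.02 to -0.13, limma adjusted p = 0.222). Of the 7 mitochondrially encoded subunits, ND5, a proton-pumping subunit of the membrane arm, was the only 1 with a named probe set, and stood at -0.35 (-1.23 to 0.53, limma adjusted p = 0.759). Of 12 regulators of mitochondrial biogenesis 0 passed. Nrf1 stood at 1.39 (0.39 to 2.36, limma adjusted p = 0.0928) and the nuclear receptor gene Esrra at -1.29 (-2.25 to -0.31, limma adjusted p = 0.12). Of 10 genes used as measures of mitochondrial content, Hspd1, a matrix chaperonin, rose (2.11, 0.98 to 3.20, limma adjusted p = 0.0115), against 1.71% of all genes that rose. The sign of Hspd1 turned after arrays were centred on their medians (-0.95). Vdac1, a channel of the outer membrane, stood at -1.15 (-2.09 to -0.19, limma adjusted p = 0.173). The list's median was 0.06.

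Among the 47 measured genes of complexes II to V, 5 fell and 0 rose, 36 (76.6%) were below the low-fat mean and the median was -0.53. Over all genes 1.78% fell, 1.71% rose, 47.5% were lower and the median was 0.04. Of the 44 complex I genes 2 fell, 1 rose, 26 were lower and the median was -0.25. The difference between complex I and complexes II to V was not tested. The largest fall was that of Cox7a1, the isoform of a cytochrome c oxidase subunit found in heart and muscle (-3.55, -4.98 to -2.09, limma adjusted p = 0.000167). Uqcrh of complex III (-2.30), Atp5g1 of complex V (-1.96), Sdhd of complex II (-1.76) and Cox6b2 (-1.75) also fell. Their limma adjusted p-values were 0.00717, 0.0164, 0.0307 and 0.0371, in that order. After quantile normalisation Uqcrh turned to 0.19, and Atp5g1 had no fit there. Leaving out arrays 1 at a time ended the call of Cox6b2 in 12 of 20 fits (limma adjusted p up to 0.0666, without high-fat replicate 1) and that of Sdhd in 9 of 20 (up to 0.0552, without low-fat replicate 6), so the count of 5 rests in part on narrow calls. Without suffixed probe sets Atp5g1 stood at -0.62 (limma adjusted p = 0.538). Mean scores were 6.33 for Cox7a1 and 6.71 for Cox6b2, within the 5.89 to 6.94 of the skeletal muscle markers. Those of Uqcrh, Atp5g1 and Sdhd were 11.74, 11.35 and 11.53. Cox7b2, with a mean score of 5.57, had the highest standardised difference, at 1.19, and did not pass. Of 5 skeletal muscle markers 1, Mylpf, passed and fell, against 1.78% of all genes that fell. That list had a median standardised difference of -0.08. Its summed scores ran from 31.88392 to 31.88397 in high-fat mice and from 31.88391 to 31.88396 in low-fat mice. Of 2 measured markers of pancreatic acinar cells 1, Cela1, passed and rose, against 1.71% of all genes that rose. The acinar list had a median standardised difference of 1.11. Its summed scores ran from 14.4868 to 14.49024 in high-fat mice and from 14.48504 to 14.48791 in low-fat mice. The part of these markers in the results was not tested.

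**Figure D5:**
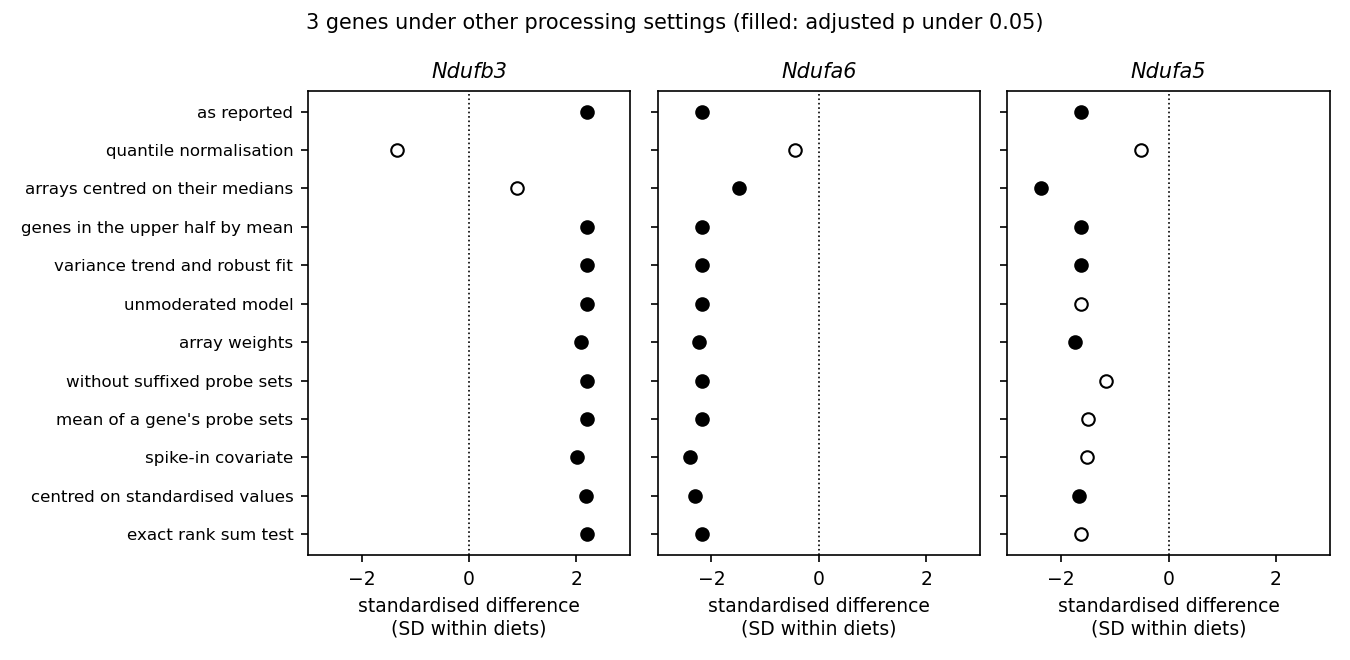
Standardised difference (SD within diets, high-fat minus low-fat) of Ndufb3, Ndufa6 and Ndufa5 as reported and under 11 other processing settings. Filled points have an adjusted p under 0.05. The fits without 1 array and the replicate block are not shown. With that block Ndufa5 passed, and Ndufb3 (limma adjusted p = 0.0689) and Ndufa6 (0.058) did not. Ndufa6 and Ndufa5 stay below 0 in every setting shown, and Ndufb3 turns to -1.34 after quantile normalisation.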

How the data were processed

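Liver RNA of 20 mice, 10 per diet, was biotin-labelled with an Affymetrix kit and hybridised to 1 array per mouse, per the labels' protocols. The authors deposited a probe set score per array. Summary method and normalisation: not given in the sources used here. In the deposited table there were 0 columns of other samples.

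Probe sets were named through the annotation of the platform. Of 45037 probe sets that are not controls, 34945 had 1 symbol, 932 several (not named) and 9160 none here. The comparison of diets used lmFit and eBayes of limma 3.58.1 under R 4.3.3, two-sided and without covariates or a filter, tested on simulated data. Intervals of standardised differences come from the noncentral t distribution. They use each gene's own SD, without limma's sharing of variances, and are not adjusted for the number of genes. Of the 44 intervals 12 excluded 0, while 10 genes had an unadjusted limma p under 0.05. The number of arrays limits the precision.

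The members and lists were chosen with earlier results of these data known. Named genes were the members past the threshold, Ndufb3, Ndufa6 and Ndufs1, and the highest and lowest of each group or list. Ndufb11, Ndufs8, Ndufa12, Ndufb5, Ndufa3, Ndufs4, Ndufv1 and Ndufaf4 were chosen after their values were seen.

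Alternatives were other scalings, filters, variance models, weights, probe set choices, an exact rank sum test, a replicate block and leaving out each array. A spike-in covariate and centring on standardised values were added after seeing the data. The covariate was the mean standardised score of 24 spike-in probe sets. It averaged -0.397 in high-fat mice and 0.397 in low-fat mice. With it Ndufb3 (limma adjusted p = 0.0354) and Ndufa6 (0.0183) kept their calls, and Ndufa5 did not (-1.52, limma adjusted p = 0.113). Replicate numbers are shared by both diets, but the deviations of same-numbered mice correlated between -0.159 and 0.26 and only 2 of 10 pairs exceeded 0.1, so they were not treated as pairs.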

Additional observations from a re-analysis of the deposited data

Results flagged for a closer look

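Named genes were screened for mice that lay far from the rest of their diet, which chance gives in about 1 of 20 groups. Of 70 groups of 10 mice, 4 held such a mouse. In Ndufaf1, high-fat replicate 10 had the lowest score, at a gap of 0.517 of the range. Leaving that mouse out gave a standardised difference of 1.16 (limma adjusted p = 0.201). In Ndufc2 the low score of high-fat replicate 3 had a gap of 0.486, and leaving it out gave 0.38 (limma adjusted p = 0.728). In Ndufs4 the gap was 0.48 for the low score of low-fat replicate 9, with 0.36 when it was left out (limma adjusted p = 0.756). In Nrf1 the gap was 0.585 for the high score of high-fat replicate 4, with 1.34 when it was left out (limma adjusted p = 0.132). Neither with all mice nor without that mouse did any of these 4 genes pass.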

How the results depend on the processing

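The count of 3 subunit genes past the threshold was 1 after quantile normalisation (Ndufa10, lower), 34 after arrays were centred on their medians (all lower), 5 after centring on standardised values (2 higher, 3 lower) and 1 at an adjusted p of 0.01. With the replicate block it was 1 (Ndufa5), Ndufb3 then stood at 1.76 (limma adjusted p = 0.0689) and Ndufa6 at -2.0 (0.058). The replicate numbers were not found to pair the mice, and only 1 of 10 high-fat mice correlated best with its own number. Over the 20 fits without 1 array the count of subunit genes ran from 2 to 3, and Ndufb3 (2.08 to 2.56) and Ndufa6 (-2.59 to -2.07) kept their calls. The count of 0 assembly factors became 5 after arrays were centred on their medians and was 0 in the other settings, with 1 gene of 8 at an unadjusted p under 0.05. The median of subunits moved from -0.29 to -1.30 and that of assembly factors from 0.32 to -1.12 after median centring (-0.19 and -0.27 after quantile normalisation, so that the sign of the assembly factors turned), and without 1 array they ran from -0.38 to -0.18 and from 0.18 to 0.46. Centring subtracts each array's median from all its scores and called 14841 genes. Quantile normalisation left 13 of 44 complex I genes with 1 value on all arrays. Both scalings shifted the median of all genes from 0.04, to -1.24 and -0.40.

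Signs turned after median centring for Ndufa4l2 (-1.26), Ndufa7 (-1.27), Ndufaf1 (-1.17), Ndufaf4 (-0.13), Ndufb11 (-1.27), Ndufc2 (-1.28), Ndufs3 (-1.17), Ndufs4 (-0.94), Ndufs8 (-1.07), Ndufv1 (-1.28), Cox7b2 (-1.23), Hspd1 (-0.95) and Nrf1 (-1.07). They turned after quantile normalisation for Ndufb3 (-1.34), Ndufa12 (0.27), Ndufa7 (-0.20), Ndufaf4 (-0.73), Ndufs8 (-0.19), Dmac2 (0.56), Nrf1 (-0.74) and Uqcrh (0.19). Of values near 0, Ndufa4l2 turned with array weights (-0.09), with the spike-in covariate (-0.16) and between fits without 1 array (-0.08 to 0.37), and Ndufc2 with array weights (-0.003), without suffixed probe sets (-0.32), with the mean of its probe sets (-0.12) and between fits without 1 array (-0.09 to 0.38). Ndufa12 turned without suffixed probe sets (0.33), where its lowest scoring probe set remained. Median centring lowered every high-fat minus low-fat score difference by 7.21e-05, the difference between the array medians. Each gene listed above as turning there had a positive difference smaller than that. The cause of the turns under the remaining settings was not tested. Ndufa5 lost its call in 7 of 13 other settings. Nrf1 passed without low-fat replicate 2 (limma adjusted p = 0.0197).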
